A study of Mus musculus with 6 samples.

Results

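The Slc genes, which encode the solute carrier membrane transporters, were examined as miRNA targets in AGO2-CLASH libraries of P19 mouse embryonic carcinoma cells. A target gene was taken as a member when its symbol began with Slc, a family number and a letter. Of the 3200 target genes in the table of hybrids, 63 met this rule, and they held 260 of the 15159 hybrid entries and 269 of the 15680 reads (1.72%). In CLASH, UV light fixes RNA to AGO2, and the miRNA and the mRNA piece held by the same protein are ligated into a hybrid that is then sequenced. The WT libraries came from cells with both Dicer alleles intact, Dicer (+/+), and the HM libraries from a Dicer (HM/-) line, in which one allele carries a hotspot change of the RNase IIIb domain and the other is truncated. There were 3 libraries per genotype, labelled as biological replicates, all of them AGO2-CLASH of the same cell line. The HM line is a single edited clone, so genotype and clone cannot be told apart.

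Solute carriers move nutrients, ions, metals and metabolites across the plasma membrane and the membranes of organelles, and the family number groups proteins of related sequence that often share a kind of substrate. A miRNA finds its target chiefly through its seed, bases 2 to 8, and AGO2 carries either the strand from the 5′ arm of the hairpin (5p-miRNA) or the one from the 3′ arm (3p-miRNA). RNase IIIb of Dicer cuts the 5p-arm, and RNase IIIa cuts the 3p-arm. The strand that is usually kept is the guide and the other is the passenger.

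Total hybrid reads ranged from 1621 to 5341 per library, and where no read was seen, fewer than about 3 reads remain possible, or 0.0562% to 0.185% of a library's hybrids. Values per library are given in the order of replicates 1 to 3. Entries had 1 read in 97.3% of the Slc hybrids, and intervals and limits cover counting error only, since reads may not be independent molecules. miRNAs of the miR-290 and miR-302 clusters, known markers of pluripotent cells, gave 34.5% to 59.1% of hybrid reads, and 12 of the 13 hairpins listed had at least 1 hybrid. Hybrid counts depend on how much target RNA the cells hold and on how often AGO2 carries it, and these cannot be told apart here. Counts were not scaled to 3′ UTR length, so an order of genes by reads is not an order of binding strength.

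The miRNAs that carried most Slc hybrids fell into a few groups with one seed each, and the mature sequences of leading members, from RefSeq (GRCm38.p6), show that seed in capitals. The first 4 share the seed AUUGCAC, the next 3 share AAGUGCU, and the last 2 share AAAGUGC.
miR-367-3p: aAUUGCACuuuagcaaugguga
miR-92a-3p: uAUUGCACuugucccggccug
miR-363-3p: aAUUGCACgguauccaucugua
miR-25-3p: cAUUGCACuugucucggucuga
miR-302b-3p: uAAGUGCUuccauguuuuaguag
miR-302d-3p: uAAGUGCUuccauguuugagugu
miR-295-3p: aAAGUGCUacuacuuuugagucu
miR-20b-5p: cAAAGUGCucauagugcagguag
miR-93-5p: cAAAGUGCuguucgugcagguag
In GRCm38.p6, miR-367-3p lies at chr3:127545779-127545800 and miR-302b-3p at chr3:127545275-127545297, both on the plus strand and close to each other. miR-92a-3p lies at chr14:115044476-115044496 on the plus strand, and miR-20b-5p at chrX:52742159-52742181 on the minus strand.

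The target fragments below are the most-read piece of at most 30 bases for the leading miRNA of each Slc gene with at least 10 reads, with ties settled by seed match and length. Capitals mark the bases complementary to the seed (bases 2 to 7 or 2 to 8), and a fragment without capitals has no such run. Each line names the gene and its miRNA.
Slc25a32 with miR-367-3p: gagaagctcattTGCAATattt
Slc35f2 with miR-92a-3p: agtctgggatgttgGTGCAATaagat
Slc38a2 with miR-92a-3p: attagtctgggaaacagtgccgag
Slc31a1 with miR-302b-3p: aggattgatgGCACTTagggaca
Slc35b2 with miR-302b-3p: agtatgaAGCACTTaagttcgtcagct
The Slc25a32, Slc31a1 and Slc38a2 pieces differ in kind. The first 2 of these pair with seed bases 2 to 7 and have an A opposite base 1 of the miRNA, a 7mer-A1 match, and the last has no seed match. Genome positions of the fragments were not used here.

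The reads were spread thinly over many transporters. There were 5 Slc genes with at least 10 reads, which together held 110 of the 269 reads (40.9%), 13 genes with 5 to 9 reads, 18 with 2 to 4 and 27 with a single read. The 63 genes belong to 28 families and are 16.8% of the 375 protein-coding Slc genes in the reference table, and every symbol was found there. They paired with 62 of the 298 miRNAs in 159 miRNA-target pairs, of which 125 had 1 read. A transporter without hybrids here was not seen at this depth, and whether the cells express it was not tested.

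The share of hybrid reads on Slc genes overlapped between the genotypes. It was 1.76%, 1.76% and 1.67% across the WT libraries and 1.32%, 1.89% and 1.57% across the HM libraries. The Wilson 95% intervals ran from 0.876% in HM library 1 to 2.45% in WT library 1, and all of them overlapped. The mean was 1.73% ± 0.0549 (SD, n = 3) in WT and 1.60% ± 0.284 (SD, n = 3) in HM. At an equal depth of 1621 reads, 17.6 ± 1.85 distinct Slc genes were expected in WT and 16.3 ± 2.33 in HM (SD, n = 3), and the values of the libraries overlapped. Of the 63 genes, 13 had reads in WT only (20.6%), 23 in HM only (36.5%) and 27 in both. All other target genes divided likewise, with 22.2% in WT only and 39% in HM only, while HM has more reads in all.

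By substrate, the Slc35 family led with 70 reads on 16 genes. This family includes the nucleotide sugar transporters of the Golgi and endoplasmic reticulum. The mitochondrial carriers of the Slc25 family followed with 59 reads on 5 genes, of which Slc25a32 alone had 51. Families of amino acid transporters gave 40 reads on 10 genes, and those of metal transporters 36 reads on 11 genes. Families that move inorganic ions gave 33 reads on 9 genes. The remaining groups, organic ions and lipids, sugars, and vitamins and nucleosides, had 10 or 11 reads each. The Slc35 genes had 4.25 ± 0.814 reads per 1000 hybrid reads in WT and 4.68 ± 0.898 in HM (SD, n = 3). The mitochondrial carriers had 3.64 ± 1.54 in WT and 3.41 ± 1.39 in HM, and the amino acid group 2.92 ± 1.08 and 1.91 ± 1.21. WT and HM libraries overlapped in each of these 3 groups.

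**Figure D1:**
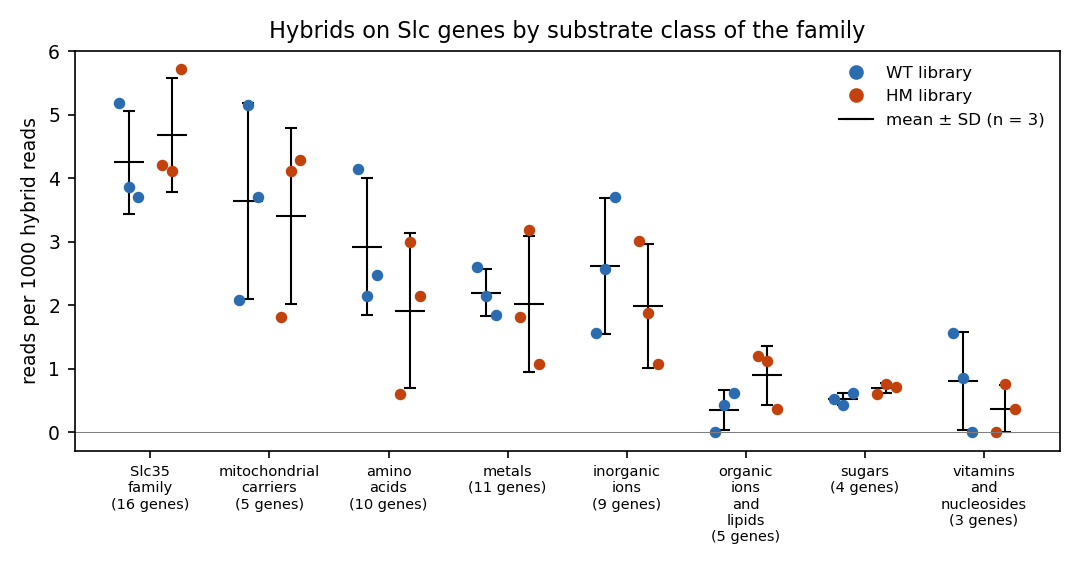
Reads on Slc genes per 1000 hybrid reads (vertical axis) in each library, by the substrate class of the gene's family (horizontal axis), with blue points for WT, orange for HM and black bars for mean ± SD (n = 3). The Slc35 family and the mitochondrial carriers have the highest means in both genotypes. The order differs in some libraries, as in WT library 1, with mitochondrial carriers at 2.07 and amino acids at 4.15.

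Slc25a32, the carrier that brings folate and FAD into mitochondria, was the Slc gene with the most hybrids. It had 4, 9 and 6 reads across the WT libraries and 3, 19 and 10 across the HM libraries, and with 51 reads it ranked 24 among all 3200 target genes. Scaled to 1000 hybrid reads, this was 3.21 ± 0.989 in WT and 2.98 ± 1.02 in HM (SD, n = 3). The lowest WT and the lowest HM library were alike, and the groups overlapped. The log2 fold change of HM over WT was -0.01 with a standard error of 0.52 and an adjusted p of 0.987 (edgeR quasi-likelihood test). Its approximate 95% interval ran from -1.03 to 1.01, so changes within that range remain possible.

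Nearly all of this came from a single miRNA at a single site. miR-367-3p held 44 of the 51 reads (86.3%), with 3, 8 and 4 across the WT libraries and 3, 17 and 9 across the HM libraries. Slc25a32 was the target with the sixth-most reads among the 563 genes paired with miR-367-3p and took 1.93% of the 2277 reads of that miRNA. Fragments that share 10 bases in a row were joined into sites, and the site printed above for Slc25a32 held 46 reads, present in all 6 libraries. It was also paired with miR-25-3p and miR-92b-3p, which carry the same seed. Relative to all hybrids of 3p-miRNAs, the miR-367-3p pair had 5.44 ± 2.04 reads per 1000 in WT and 2.86 ± 0.840 in HM (SD, n = 3). The groups overlapped between HM libraries 2 and 3 and WT library 1, and the log2 fold change was -0.84 with a standard error of 0.51 and an adjusted p of 0.33 (edgeR). Scaled to all hybrids instead, it was 0.20 with an adjusted p of 0.787.

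The fragments at the Slc25a32 site had a common outline. Of the 39 entries placed on the printed fragment, 34 ended 3 to 5 bases after the match to bases 2 to 7 of the miRNA, with a median of 4, and they began 9 to 16 bases before it. With positions counted from 1 at the 5′ end of the printed fragment, the substitution T12C occurred in 4 of the 39 entries (10.3%), in WT library 2 and HM libraries 2 and 3. Position 12 lies opposite base 8 of the miRNA, next to the seed match. A5T occurred once. The origin of these mismatches was not tested.

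**Figure D2:**
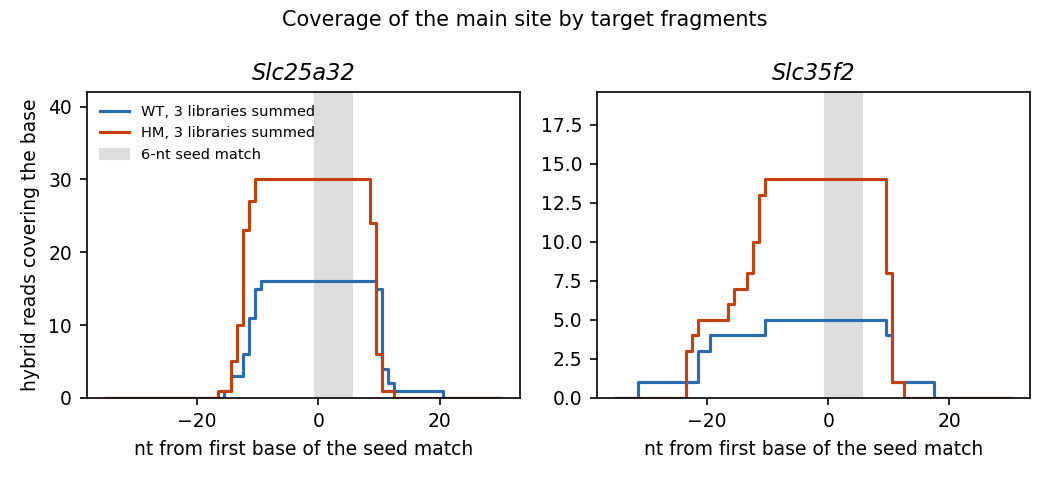
Number of hybrid reads covering each base (vertical axis) against distance in nt from the first base of the seed match (horizontal axis) for the main sites of Slc25a32 and Slc35f2, summed over 3 WT libraries (blue) and 3 HM libraries (orange), with the 6-nt match shaded. In both genes and both genotypes the fragments span the match and end shortly after it, and in Slc25a32 34 of 39 entries end 3 to 5 bases past it.

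Slc35f2 of the Slc35 family had 4, 0 and 1 reads across the WT libraries and 3, 11 and 6 across the HM libraries. Per 1000 hybrid reads this was 0.897 ± 1.06 in WT and 2.00 ± 0.176 in HM (SD, n = 3). The HM libraries lay close together and the WT libraries far apart, with WT library 1 at 2.07, inside the range of HM. The log2 fold change was 1.21 with a standard error of 0.77 and an adjusted p of 0.339 (edgeR), so it did not pass the test. The estimate depends on WT library 1: without it the log2 fold change was 2.79, still with an adjusted p of 0.0961.

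At Slc35f2 several miRNAs met at one site. Its main site, a match to bases 2 to 8 followed by an A (8mer), held 20 of the 25 reads and was paired with miR-92a-3p, miR-363-3p, miR-367-3p and miR-92b-3p, all with the seed AUUGCAC. Fragments of 2 of these miRNAs show the shared match in capitals.
Slc35f2 with miR-363-3p: tgggatgttgGTGCAATaaga
Slc35f2 with miR-367-3p: tgggatgtttGTGCAATaaga
The second fragment differs from the first by G10T, counted from 1 at the 5′ end of the first, seen in 1 of 18 entries placed there. miR-92a-3p had 2, 0 and 0 reads on Slc35f2 across the WT libraries and 1, 4 and 3 across the HM libraries. That pair had a log2 fold change of 0.20 relative to 3p hybrids, with a standard error of 1.23 and an adjusted p of 0.958 (edgeR). miR-363-3p was paired with Slc35f2 in HM only, with 1, 2 and 1 reads. Other sites of the gene were paired with miR-27b-3p (2 reads) and with the passengers miR-129-2-3p, miR-18b-3p and miR-30c-1-3p (1 read each), all in HM libraries.

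Slc38a2, a sodium-coupled transporter of neutral amino acids, had 5, 1 and 1 reads across the WT libraries and 0, 4 and 2 across the HM libraries. WT library 1 was the highest and HM library 1 had none, and the groups overlapped. The log2 fold change was -0.93 with a standard error of 0.91 and an adjusted p of 0.551 (edgeR). miR-92a-3p gave 6 of the reads, 4 of them in WT library 1, and 5 of these lay at the site printed above, where none of the entries has a 6-base seed match. With pairs of at least 5 reads in the test, of which 13.9% were called over all genes, none of 5 Slc pairs was called, and this one had the lowest adjusted p, 0.0547.

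Slc31a1, the high-affinity copper importer, had 2, 1 and 0 reads across the WT libraries and 0, 7 and 1 across the HM libraries. HM library 2, the deepest, held most of them. The log2 fold change was 0.58 with a standard error of 1.06 and an adjusted p of 0.779 (edgeR), and it turned to -0.40 when scaled to 3p hybrids. Of the 11 reads, 8 lay at the site printed above, which was paired with 5 miRNAs: miR-291a-3p, miR-292a-3p, miR-302a-3p, miR-302b-3p and miR-302d-3p.

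Slc35b2, which carries the sulfate donor PAPS into the Golgi, had 0, 2 and 0 reads across the WT libraries and 2, 4 and 2 across the HM libraries. Every HM library had reads, and 2 of the 3 WT libraries had none. The log2 fold change was 1.17 with a standard error of 1.16 and an adjusted p of 0.555 (edgeR). All 10 reads were from the miR-302 and miR-295 3p-miRNAs and fell on a pair of sites with 5 reads each. The first is the 8mer site printed above, and the second, printed next, has no 6-base match to the seed in any of the 4 entries that could be read.
Slc35b2, second site: tgtcaccttttgctcttatttg

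**Figure D3:**
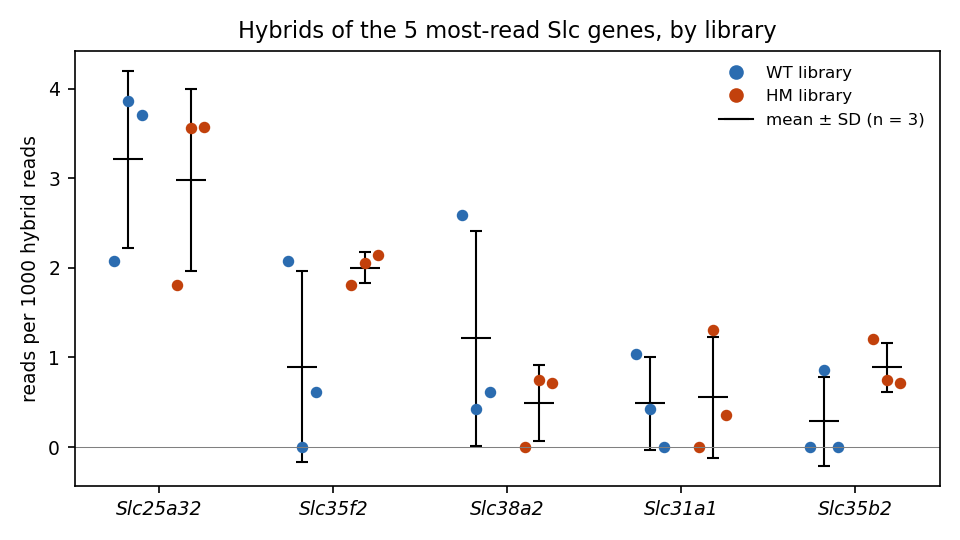
Reads per 1000 hybrid reads (vertical axis) of the 5 Slc genes with at least 10 reads (horizontal axis), with blue points for WT libraries, orange for HM libraries and black bars for mean ± SD (n = 3). WT and HM libraries overlap for each of the 5 genes, and Slc25a32 lies highest in both, at 3.21 in WT and 2.98 in HM on average.

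None of the 5 Slc genes tested was called different between HM and WT by edgeR, while 57 of the 344 target genes tested were (16.6%), 20 higher and 37 lower in HM. None of the 5 had an unadjusted p under 0.05, against 78 of all genes (edgeR). DESeq2 called 14 of all genes and no Slc gene, but gave no adjusted p for Slc31a1 and Slc35b2, which thus could not be called. For 0 of the 5, WT and HM libraries did not overlap, against 30.8% of all genes tested. The median log2 fold change was 0.58 over the 5 Slc genes and 0.27 over all genes tested. Scaled to 3p hybrids, the median of all genes moved to -0.75, with 1 gene called higher and 68 lower, and that of the 5 Slc genes to -0.40. Slc25a32 was then at -1.05 (adjusted p = 0.134, edgeR), Slc38a2 at -1.93 (adjusted p = 0.124, edgeR), Slc35b2 at 0.21 and Slc35f2 at 0.19, so their sizes are relative to the scale chosen. Of the 140 pairs tested, 22 were called (15.7%), 3 higher and 19 lower, and 23.6% had libraries that did not overlap. Scaled to all hybrids, 20 were higher and 13 lower. The 2 Slc pairs among them were not called and overlapped. With 5 genes and 2 pairs, these counts say little about solute carriers as a group.

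Among the 13 Slc genes with 5 to 9 reads, some were seen in one genotype only. With at least 5 reads as the minimum, 801 genes were tested, 7.12% were called and 23.3% had libraries that did not overlap. Of the 18 Slc genes in that test none was called, 5 had an unadjusted p under 0.05, against 154 of all 801 genes (19.2%), and 4 did not overlap, Slc12a7, Slc35b4, Slc35g1 and Slc9a7. Slc12a7, a potassium-chloride cotransporter, had 2, 2 and 1 reads across the WT libraries and none in HM (adjusted p = 0.0652, edgeR). With 3 reads over the HM group as the floor, this was a 2.78-fold lower value. Such a ratio takes the reads of the other genotype as exact, so it is not a lower limit of the difference. Slc41a1, a magnesium transporter, had 2, 0 and 3 reads in WT and none in HM, with the same ratio and adjusted p. In contrast, Slc9a7, a sodium-proton exchanger of the trans-Golgi network, had no reads in WT and 2, 3 and 1 across the HM libraries. Its read in HM library 3 was of miR-300-3p, from the imprinted chromosome 12 cluster, which is silent in the HM clone according to the methods. Without that read, WT and HM libraries of Slc9a7 would overlap. Slc30a7, a zinc transporter of the Golgi, had none in WT and 2, 4 and 0 in HM. Slc9a7 and Slc30a7 were 1.20-fold higher in HM with the same floor in WT, and had an adjusted p of 0.226 (edgeR).

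Of the 13 Slc genes with reads in WT only, 7 had 5p hybrids alone, 3 had 3p hybrids alone, 2 had both and 1 had a miRNA without an arm. This split is given for Slc genes only, and the mean 5p share of reads on all other genes was 54.0% in WT. Slc41a1 had only 5p hybrids, 5 reads, and Slc12a7 had 4 of 5, mainly from miR-106a-5p, which was present once in each WT library. Slc35g1 had 5 reads in WT and 1 in HM, all 5p, at a site shared by miR-17-5p, miR-20a-5p, miR-20b-5p and miR-93-5p. Slc35b4, a carrier of UDP-sugars, had 3, 2 and 1 reads in WT libraries 1 to 3, all of 5p-miRNAs, and 1, 0 and 1 in HM, both of miR-302b-3p. Its main site, one of Slc41a1 and that of Slc35g1 are printed to show that they carry the run CACTTT, complementary to bases 2 to 7 of the seed AAAGUGC.
Slc35b4 with miR-20b-5p: ccaccattcCACTTTagctg
Slc41a1 with miR-20a-5p: tctgggatttCACTTTgata
Slc35g1 with miR-20b-5p: attgaaattGCACTTTtttt

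Of the 23 Slc genes with reads in HM only, 18 had 3p hybrids alone, 3 had 5p hybrids alone, 1 had both and 1 had a miRNA without an arm. This split is given for Slc genes only, and since the mean 5p share of reads on all other genes was 3.93% in HM, it does not set Slc genes apart. Slc9a7 had 6 reads, all 3p, from miR-30a-3p, miR-30e-3p, miR-302a-3p, miR-302c-3p, miR-300-3p and miR-381-3p, 1 each. Of these, miR-300-3p and miR-381-3p belong to the chromosome 12 cluster, which the methods describe as silent in the HM clone. Slc30a7 had 5 3p reads of 6, of which 2 were from miR-30a-3p, in HM libraries 1 and 2. miR-30a-3p and miR-30e-3p are passengers with the seed UUUCAGU, and the pieces of both genes hold its complement in capitals.
miR-30a-3p: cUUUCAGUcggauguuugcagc
miR-30e-3p: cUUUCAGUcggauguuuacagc
Slc30a7 with miR-30a-3p: ttggaaacaatgtgACTGAAAttt
Slc9a7 with miR-30a-3p: ggacctgtgtatgCTGAAAaaa
Slc9a7 with miR-30e-3p: cctgtgtatgCTGAAAaaaaa

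The other Slc genes with 5 to 9 reads were seen in both genotypes. Slc6a6, the taurine transporter, had 9 reads, 7 of them in HM. Slc35d3 had 8 reads, of which 5 were with miR-367-3p, none of them with a 6-base seed match. Slc12a5, the neuronal potassium-chloride cotransporter, had 6 reads, every one with miR-367-3p at one 8mer site, in WT library 2 and HM libraries 1 and 2 with 2 reads each.
Slc12a5 with miR-367-3p: ctgtgctccatGTGCAATattt
Slc16a1, the lactate and pyruvate transporter MCT1, had 6 reads, 4 of them in HM library 2. Slc19a2, a thiamine transporter, had 5 reads, as did Slc36a1, a proton-coupled amino acid transporter, and Slc6a15, a neutral amino acid transporter with 4 of its reads from miR-292a-3p. Among the 45 genes under 5 reads, examples by class were Slc4a7 (4 reads) for inorganic ions, Slc39a6 (4) and Slc40a1 (3) for metals, and Slc45a3 (4) and Slc2a1 (3) for sugars. Slc23a2 (4), Slc29a2 (1), Slc25a36 (4), Slc25a51 (2), Slc43a2 (2), Slc6a9 (2), Slc44a1 (2), Slc16a12 (1), Slc35b3 (3) and Slc35a1 (1) stood for the remaining classes. Slc45a3 was paired with miR-367-3p in all 4 of its reads.

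By arm, the Slc hybrids differed sharply between the genotypes. Reads with 5p-miRNAs on Slc genes were 18, 19 and 14 across the WT libraries and 0, 5 and 1 across the HM libraries, while those with 3p-miRNAs were 16, 21 and 13 in WT and 22, 95 and 43 in HM. The 5p share of Slc reads with an arm was 52.9%, 47.5% and 51.9% in the WT libraries and 0%, 5.0% and 2.27% in the HM libraries. With 0 of 22 reads, HM library 1 allows a share of up to 13.6%. The lowest WT library lay far above the highest HM library, with Wilson 95% intervals of 32.9% to 62.5% and 2.15% to 11.2%. The means were 50.8% ± 2.88 in WT and 2.42% ± 2.50 in HM (SD, n = 3), and those of all other genes were 54.0% ± 2.27 and 3.93% ± 0.332. Slc genes thus differed between genotypes by -48.3 percentage points and other genes by -50.1.

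Hybrids of both arms were counted by gene as well, while HM has 9799 hybrid reads in all and WT 5881. In WT, 26 Slc genes had 5p hybrids and 20 had 3p hybrids, and in HM these numbers were 6 and 45, with no such count given for other genes. Of 19 Slc genes with 5p but no 3p hybrids in WT, 12 (63.2%) still had hybrids in HM, 11 of them with 3p-miRNAs, and for other genes it was 352 of 803 (43.8%). The difference between these shares was not tested. At the level of sites, 34 Slc sites had 5p hybrids in WT, 1 of them had 5p hybrids in HM and 5 had 3p hybrids in HM. These site counts are given for Slc genes only. At the Slc35b4 site WT held miR-93-5p, miR-20b-5p, miR-20a-5p and miR-17-5p, and HM held 1 read of miR-302b-3p, without a 6-base seed match. A Slc19a2 site had miR-106b-5p and miR-17-5p in WT, and miR-17-3p and miR-302b-3p in HM, with 1 read each. The miR-17-3p entry had no 6-base seed match.
Slc19a2, shared site: gggctgtactgtatGCACTTTgatg

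Passenger 3p-miRNAs, by the classes of the study, gave 3 Slc reads in WT, on 3 genes, and 27 in HM, on 16 genes. Their share of 3p reads on Slc genes was 12.5%, 0% and 7.69% across the WT libraries and 18.2%, 21.1% and 6.98% across the HM libraries. HM library 3 lay below WT library 1, so the groups overlapped. The means were 6.73% ± 6.31 in WT and 15.4% ± 7.44 in HM, and in all other genes 7.06% ± 0.809 and 15.6% ± 0.985 (SD, n = 3). The difference of 8.67 percentage points for Slc genes rests on the classes. With 3p-miRNAs that have no class counted as passengers it was -0.86. These were 26 reads, 8 in WT and 18 in HM, and 13 of them were of miR-302a-3p. No such recount is given for other genes. Passengers with the most Slc reads were miR-292a-3p with 7, miR-30a-3p with 5 and miR-302c-3p with 4.

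**Figure D4:**
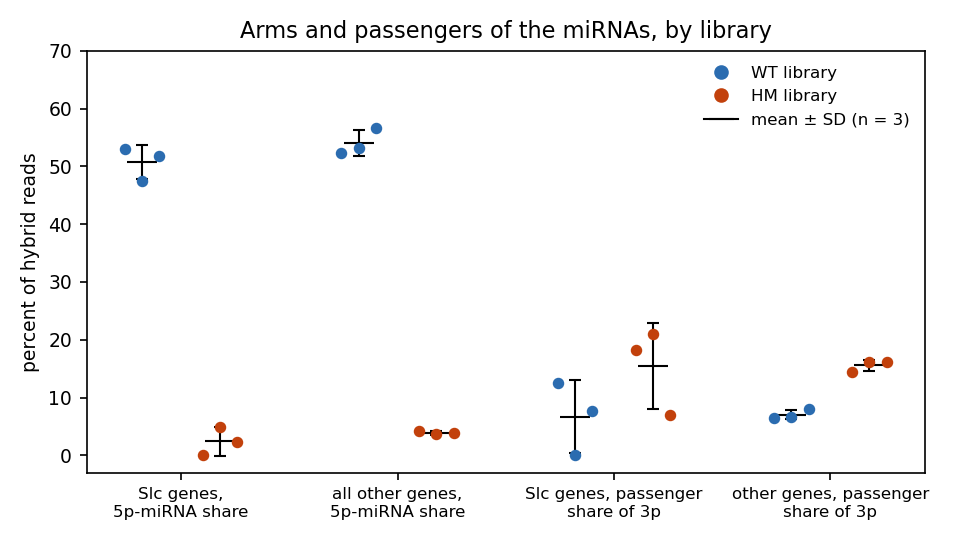
Percent of hybrid reads (vertical axis) that were of 5p-miRNAs, among reads with an arm, and of passengers among 3p-miRNAs, for Slc genes and for all other genes (horizontal axis), with blue points for WT libraries, orange for HM libraries and black bars for mean ± SD (n = 3). The 5p share falls from 50.8% in WT to 2.42% in HM on Slc genes, as on other genes (54.0% and 3.93%), and the passenger share of Slc genes is spread more widely than that of other genes.

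Among the miRNAs, miR-367-3p led with 70 of the 269 Slc reads (26%) on 10 genes, 3, 11 and 7 across the WT libraries and 8, 28 and 13 across the HM libraries. It gave 14.3% of the reads on all other genes, and without Slc25a32 it gave 26 of the remaining 218 Slc reads (11.9%). miR-302b-3p followed with 24 reads, spread over 17 genes, or 8.92% of Slc reads against 15.9% of other reads. miR-92a-3p had 19 reads on 5 genes, miR-302a-3p 13 on 8 genes, miR-20b-5p 11 on 8 genes and miR-302d-3p 10 on 7 genes. The list of the 10 most frequent, which held 65.1% of the Slc reads, ended with miR-93-5p (8 reads, all in WT), miR-19b-3p (7), miR-292a-3p (7) and miR-20a-5p (6, of which 5 were in WT). From the imprinted chromosome 12 cluster, which is silent in the HM clone according to the methods, 8 Slc reads came, 3 in WT and 5 in HM.

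Grouped by seed, the miR-25, miR-92a, miR-92b, miR-363 and miR-367 3p-miRNAs, with AUUGCAC, gave 37.2% of all Slc reads and 20.8% of the reads on other genes. Across the WT libraries its share was 32.4%, 26.8% and 33.3% on Slc genes, and across the HM libraries it was 45.5%, 37.6% and 47.7%. The means were 30.8% ± 3.51 and 43.6% ± 5.30 on Slc genes, and 13.6% ± 2.10 and 24.7% ± 1.29 on other genes (SD, n = 3), so the Slc share was higher in each of the 6 libraries. Without Slc25a32 it was 18.4% ± 8.67 in WT and 32.2% ± 6.79 in HM, and in WT library 2 and HM library 2 it was then 9.38% and 24.4%, below the 14.9% and 24.9% of other genes. The excess thus rests in good part on 1 gene. The AAGUGCU seed of miR-302b-3p, miR-302d-3p and the miR-290 cluster gave 8.24% ± 4.28 of Slc reads in WT and 21.5% ± 5.30 in HM, against 14.2% ± 0.331 and 29.8% ± 0.449 on other genes. miR-302a-3p, with no RefSeq entry in the table used, is not in that share. The AAAGUGC seed of the miR-17 family 5p-miRNAs went from 31.8% ± 4.43 in WT to 1.75% ± 1.55 in HM, and on other genes from 32.7% ± 1.56 to 1.71% ± 0.229.

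**Figure D5:**
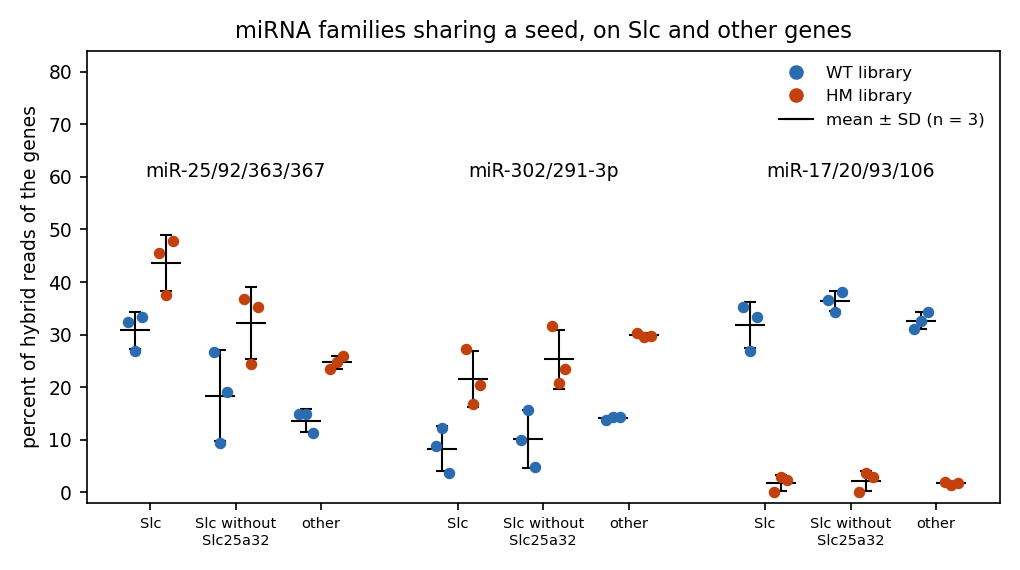
Percent of hybrid reads (vertical axis) from 3 groups of miRNAs with a common seed, on Slc genes, on Slc genes without Slc25a32 and on all other genes (horizontal axis), with blue points for WT libraries, orange for HM libraries and black bars for mean ± SD (n = 3). The group of miR-25-3p, miR-92a-3p, miR-363-3p and miR-367-3p is higher on Slc than on other genes in each library with Slc25a32 included, but not in WT library 2 and HM library 2 without it, and the group of miR-17-5p, miR-20b-5p and miR-93-5p is near 0 in HM on both.

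Seed matches in the target pieces were about as common on Slc genes as elsewhere. Of the 233 Slc entries whose miRNA has a RefSeq sequence, 159 (68.2%) held a match to bases 2 to 7, against 60.6% of 13264 entries on other genes and 62.4% of the Slc entries without Slc25a32. Per library the Slc share was 67.7%, 83.8% and 66.7% in WT and 72.7%, 65.4% and 57.9% in HM, and the genotypes overlapped. The means were 72.7% ± 9.59 in WT and 65.4% ± 7.42 in HM, and on other genes 65.9% ± 2.61 and 57.3% ± 1.66 (SD, n = 3), where the genotypes did not overlap. The 7mer-A1 type made up 30.04% of Slc entries and 13.4% of others, but 15.9% without Slc25a32, whose main site is of this type. The 8mer type was found in 20.2% of Slc entries and 24.6% of others. A further 31.8% of Slc entries had no match, against 39.4% of others. The methods describe a filter for pairs predicted by the TargetScan tool. If it was applied before deposit, these shares depend in part on it.

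Some sites on Slc genes were shared by miRNAs. The 269 reads fell on 135 sites, of which 21 were paired with at least 2 miRNAs, on 16 genes, and these 21 held 132 reads (49.1%, or 38.5% without Slc25a32). On other genes, 19.02% of 7254 sites were shared in this way, with 54.3% of the reads, against 15.6% of the Slc sites. Of the 135 sites, 21 were seen in both genotypes and 12 in at least 3 libraries, counts that are given for Slc sites only. The best covered ones, on Slc25a32, Slc35f2 and Slc31a1, had 46, 20 and 8 reads, each with miRNAs of related seeds.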

How the data were processed

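AGO2-CLASH was performed by the authors on 3 WT and 3 HM libraries of P19 cells. The authors named the miRNA of each hybrid with QuagmiR and aligned the target piece to 3′ UTRs of coding genes with Bowtie2. They also describe a filter for pairs predicted by TargetScan. The methods do not say whether the deposited hybrids were taken before or after that filter. Versions, genome build and treatment of duplicates are not given in the sources used here. Fragments outside 3′ UTRs are therefore in no count. The deposited values are raw read counts per distinct hybrid sequence, and no sequence of a library was assigned to more than 1 gene.

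Reads were summed per library, gene and miRNA. Genes and pairs with at least 10 reads over the 6 libraries entered a quasi-likelihood F-test (edgeR 4.0.16, R 4.3.3), with Benjamini-Hochberg adjustment at 0.05 over all features tested. Library size was the total of hybrids for genes and of 3p hybrids for pairs. DESeq2 1.42.0 was an alternative. The fits were tested on simulated data. Approximate 95% intervals are the estimate and 1.96 standard errors. Shares are given as mean ± SD over 3 libraries, with no test, and the number of genes at equal depth is the exact expectation of drawing without replacement.

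Seed matches used RefSeq mature sequences (GRCm38.p6), found for 56 of the 62 miRNAs on Slc genes. Entries of the others, 27 of 260, were left out of seed shares. Guide and passenger classes are those of the study. Fragments sharing 10 bases in a row were joined into sites. Slc genes with at least 10 reads are described with every library, those with 5 to 9 by their totals, and at most 2 per substrate class below that. Pairs with at least 5 reads and the 10 most frequent miRNAs are named. The members and lists were chosen with earlier results of these data known. Substrate classes follow the family number and are written from general knowledge. Some Slc fragments are not printed, and 1 gene is not reported by name here.

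Replicates share 1.05% to 5.02% of their hybrid sequences. Over miRNAs, the counts of WT libraries 1 and 2 agreed within sampling noise (chi-square p = 0.57), as did those of each pair of HM libraries (p from 0.122 to 0.747), and the other WT pairs differed (p = 0.0031 and 1.6e-05). WT libraries 1 and 2 shared 1.79% and 1.48% of their sequences, against 1.05% to 1.85% in the other WT pairs, and were kept as separate samples, and taking them as 1 sample was an added alternative. The labels call the libraries biological replicates. Same-numbered libraries did not deviate together (correlations -0.05, -0.01 and -0.04), so no pairing was used.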

Additional observations from a re-analysis of the deposited data

How the results depend on the processing

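No Slc gene or pair was called under any alternative tried, though DESeq2 gave no adjusted p for Slc31a1, Slc35b2 and miR-92a-3p with Slc35f2. The number of all genes called was 57 as reported, and 14 with DESeq2, 17 at a minimum of 30 reads, 23 with no minimum, 5 with hybrids of 3p-miRNAs only and 25 to 46 leaving out each library. Called pairs were 22, and 14 with DESeq2, 67 at a minimum of 5 reads, 3 at 30 reads and 8 to 17 leaving out each library. With the replicate number as a block, 34 genes and 13 pairs were called, none of them Slc. The direction of several small differences turned. The log2 fold change of Slc25a32 was 0.074 with TMM scaling and -0.23 to 0.19 leaving out each library. Slc31a1 was at -0.40 scaled to 3p hybrids and -0.35 with 3p hybrids only, miR-367-3p with Slc25a32 at 0.20 scaled to all hybrids, and miR-92a-3p with Slc35f2 at -0.49 and -0.21 without WT libraries 2 and 3, and too thinly read for the test without any of the others. The seed match share, 69.04% over libraries, was 34.7% when 7 bases were required, which is stricter by construction. The passenger difference of 8.67 percentage points on Slc genes was -0.86 with unclassed 3p-miRNAs, 26 reads, counted as passengers. Shares of Slc reads and of 5p reads, and the number of Slc genes at equal depth, moved by less than the spread between replicates in each alternative run. Taking WT libraries 1 and 2 as 1 sample, chosen after seeing the data as were the values without Slc25a32 and with reads in place of entries, gave 57 genes and 17 pairs called. Depth limits all of this: most Slc genes have too few reads for a test.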

Other observations

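Other transport proteins were counted the same way, as lists of symbols chosen with earlier results known. P-type ATPases had 234 reads on 9 genes, almost as many as all Slc genes together, and 189 of them were on Atp7a, the copper-exporting ATPase. Atp7a had 30, 28 and 18 reads across the WT libraries and 14, 66 and 33 across the HM libraries, with a log2 fold change of -0.20 and an adjusted p of 0.729 (edgeR). Ion channels had 80 reads on 20 genes, ABC transporters 12 reads on 5 genes, and solute carriers under other symbols 11 reads on 5 genes. Of the 3 ATPases and 4 channels tested none was called in either direction by edgeR, against 16.6% of all genes tested. Of the 4 channels, 1 had an unadjusted p under 0.05, against 78 of the 344 genes tested (edgeR). This was Clcn3, with 2, 0 and 6 reads across the WT libraries and 0, 1 and 1 across those of HM. Atp2a2, a calcium pump, had 1 read in each WT library and 3, 10 and 3 in HM, without overlap per 1000 hybrid reads, and an adjusted p of 0.269 (edgeR). It was 1 of 3 ATPases tested without overlap, against 30.8% of all genes tested. Both genes were named after their values were seen. The median log2 fold change was -0.20 over the 3 ATPases tested and -0.06 over the 4 channels tested, against 0.27 over all 344 genes tested.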
